A study of Rattus norvegicus with 48 samples.

Results

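The visceral fat of male adolescent rats that had exercised late in their active phase was compared with that of sedentary rats sampled at the same time of day. The comparison used 12 of the 48 libraries of the series, chosen by their labels alone: 6 of late exercise (LAE) and 6 of late control (LAC). Late means a zeitgeber time, counted in hours from lights on, of 23, which is near the end of the dark period, when rats are active. Fat was collected at postnatal day 61 and, in the exercised rats, 24 h after their final session, and each library came from a different rat. What both groups shared was sex, depot, hour and age; strain, feeding and the kind and length of exercise were not stated in the sources at hand. A second pair of visceral groups, early control and early exercise at a zeitgeber time of 13, with 6 rats each, serves below only to compare the exercise difference between the phases. Subcutaneous libraries were not used.

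Visceral fat surrounds the abdominal organs. Its adipocytes store triglyceride after meals and release fatty acids between them, under the control of insulin, catecholamines and glucocorticoids, and its stroma holds vessels, preadipocytes, immune cells and, at the surface, mesothelium. Adipose tissue carries its own circadian clock, and many of its metabolic genes change over the day, so the hour of sampling has to be the same on both sides of a comparison of exercise. Exercise draws on the triglyceride stored in fat, through lipolysis driven largely by catecholamines.

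The RNA was polyA-selected and came from whole tissue, so fewer cells of a type and less RNA per cell cannot be told apart in any value below. Genes carry Ensembl IDs without symbols: 0 of the 23481 IDs matched the rat gene table given as a reference. The lists of clock, lipid, mitochondrial, matrix and immune genes, and the markers of adipocytes and other cell types, were therefore not analysed here, and the labelled depot was not checked against its markers. The data are described as sets of genes, with 4 IDs given in full.

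Depth was alike in both groups. Late control libraries held 15192426 to 17243346 estimated counts and late exercise libraries 15177440 to 17119578, so that a single count was worth between 0.058 and 0.0659 CPM (the count scaled to the library total). Between 15973 and 16455 IDs had at least 1 count in a library. A gene with 0 counts in a library could still stand at up to 0.174 to 0.198 CPM there (3 counts of the raw total, counting error only).

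The 12 libraries were close to each other in the order of their genes. The median Spearman correlation of a library with the other 11 lay between 0.9859 and 0.9889, except for late control replicate 4 at 0.9808. That library also had 183 genes over 2-fold above the median of the 12, against 29 to 53 in the other controls and 29 to 123 in the exercised rats. Its 100 most abundant genes took 34.85% of the counts, against 38.61% to 42.74% in the other controls and 39.16% to 44.76% in the exercised rats. It therefore had the flattest distribution of counts of the 12.

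With all 12 libraries the groups overlapped on both principal components examined. On the first, which held 19.7% of the variance in log2 CPM, controls averaged -7.83 ± 17.7 (SD, n = 6) and exercised rats 7.83 ± 15.4 (two-sided exact permutation test, p = 0.132, adjusted p = 0.314 over 7 measures). Without late exercise replicate 6 the unadjusted exact permutation p for this component was 0.039, and without late control replicate 4 it was 0.264. Each of these libraries was the lowest of its group on the component, so leaving it out raises that group's mean by construction. The component was not computed anew, and both p-values are descriptions. On the second, with 12.7%, controls averaged 6.92 ± 11.6 and exercised rats -6.92 ± 14.2 (exact permutation p = 0.0866, adjusted p = 0.314). Late control replicate 4 lay at one end of the first component, at -40.87. Among exercised rats, replicate 6 was the lowest on it, at -14.95, beside late control replicate 3 at -13.45. Library total (exact permutation p = 0.95) and the number of detected IDs (exact permutation p = 0.517) differed by less than the spread between rats. The share of the 100 most abundant genes was 39.8% ± 2.95 in controls and 42% ± 1.98 in exercised rats (SD, n = 6; exact permutation p = 0.169). Its difference of 2.18 points lay below the SD of the controls and above that of the exercised rats.

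**Figure D1:**
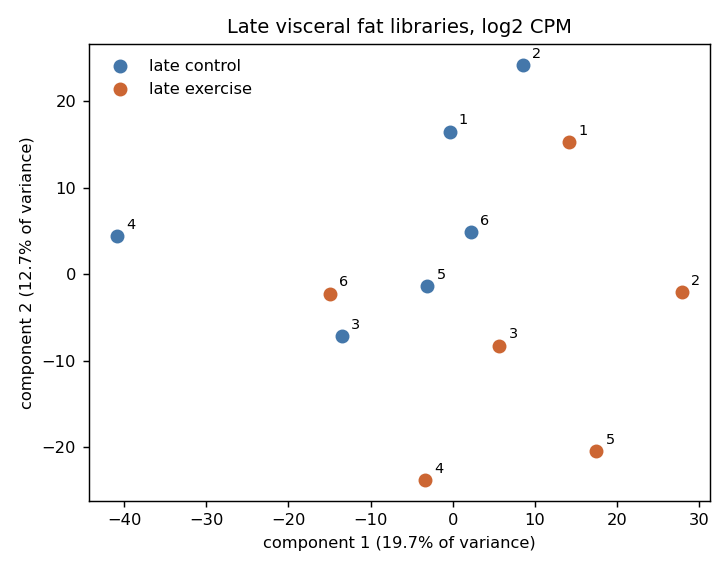
The 12 late visceral fat libraries on the first 2 principal components of log2 CPM, with 19.7% and 12.7% of the variance; numbers are replicates, blue is late control and orange late exercise. The groups overlap on both axes, late control replicate 4 lies far to the left at -40.87, and late exercise replicate 6 lies among the controls.

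The question of the comparison was which genes differ in visceral fat a day after late-phase exercise. With all 12 libraries no gene did by the test: 0 of 13438 tested genes passed (0% called) at an adjusted p under 0.05 in edgeR's quasi-likelihood test, and the smallest adjusted p was 0.198. Before adjustment, 2110 genes (15.7% of those tested) had a p under 0.05, against 672 if no gene differed and the test were exact. Of these 1141 (8.49%) were higher and 969 (7.21%) lower after exercise. Under an unadjusted p of 0.001 there were 60 genes, against 13.4. Genes vary together across rats, so these surpluses are counts and not a test.

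The fitted differences were small. For 62.2% of the genes the group levels were within 1.1-fold of each other, and for a further 23.6% they lay between 1.1-fold and 1.2-fold. The median absolute log2 fold change was 0.10, about the size of its median standard error of 0.094. Among the genes at an unadjusted p under 0.05 the median difference was 1.18-fold for those higher and 1.19-fold for those lower. For 12777 genes, or 95.1% of those tested, the 95% interval of the difference lay within 2-fold either way, and for 80.5% within 1.5-fold. These intervals are per gene and not adjusted for the number of genes. For the other 661 genes the interval reached beyond 2-fold.

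**Figure D2:**
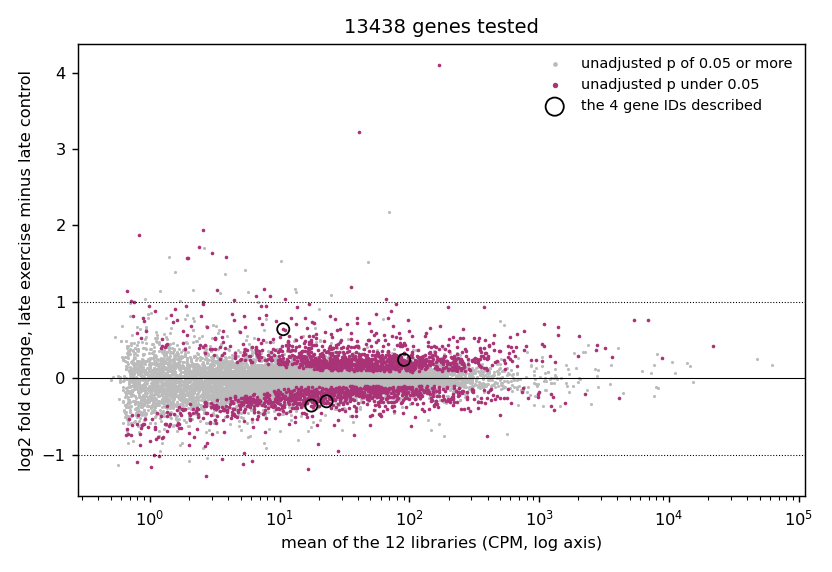
Log2 fold change of late exercise minus late control for each of the 13438 tested genes (vertical) against its mean CPM over the 12 libraries (horizontal, log axis); purple points are at an unadjusted p under 0.05, dotted lines mark 2-fold and open circles the 4 IDs described. Most points lie well inside 2-fold, and the genes beyond it are mainly on the upper side, 36 against 11.

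The share of genes at an unadjusted p under 0.05 was larger among abundant genes, from 5.95% of genes under a mean of 1 CPM and 8.62% between 1 and 10 CPM to 17.6% between 10 and 100 CPM and 29.1% between 100 and 1000 CPM. The median standard error of log2 fold changes was 0.287 in the first and 0.0702 in the last of these classes. The direction also differed with abundance. Of the 4640 genes under 10 CPM 133 were higher and 254 lower after exercise at an unadjusted p under 0.05. Of the 1526 genes at 100 CPM or more 286 were higher and 158 lower. Among genes at that threshold, scarce ones thus leaned to lower and abundant ones to higher values in exercised rats. Over all genes the lean was slight, with a median log2 fold change of -0.0472 between 1 and 10 CPM and 0.0199 between 100 and 1000 CPM. Without late control replicate 4 these medians were -0.0158 and 0.0111. Beside this lean stands the distribution of counts: genes under 10 CPM took 2.03% ± 0.237 of the counts in controls and 1.86% ± 0.135 in exercised rats (SD, n = 6; exact permutation p = 0.18), with late control replicate 4 highest at 2.47%. Without that library the numbers were 125 higher and 161 lower under 10 CPM, and 232 higher and 144 lower at 100 CPM or more. With the size factors of DESeq2 they were 134, 247, 303 and 153. The part of the count distribution in the lean was not tested.

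The 4 IDs given in full are those with the smallest p in each direction among genes with a mean of at least 5 CPM in either group. They were picked for their p and none passed the adjustment, so they show the clearest differences these libraries hold and not established changes.

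ENSRNOG00000060310 was at 6.94, 7.59 and 11.3 CPM in late control (lowest, median and highest of 6) and at 11.4, 12.9 and 14.3 CPM in late exercise. The highest control, replicate 4, and the lowest exercised rat, replicate 6, nearly met, and the groups did not overlap. The means were 8.32 ± 1.64 and 13 ± 1.03 CPM (SD, n = 6), a log2 fold change of 0.64 ± 0.114 (SE) or 1.56-fold, with a 95% interval of 1.32-fold to 1.85-fold. The adjusted p was 0.198 with edgeR, and between 0.000673 and 0.401 over the alternatives. It passed with limma voom (adjusted p = 0.0444), with DESeq2 (adjusted p = 0.000673), without late control replicate 4 (edgeR, adjusted p = 0.0155) and without late exercise replicate 6 (edgeR, adjusted p = 0.025).

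ENSRNOG00000001544 was more abundant and differed less. It stood at 78, 82.2 and 89.6 CPM in late control and at 96.1, 98 and 104 CPM in late exercise (lowest, median and highest of 6), again with no overlap. The means of 83.4 ± 4.48 and 98.5 ± 2.64 CPM (SD, n = 6) gave a log2 fold change of 0.24 ± 0.0435 (SE), or 1.18-fold, with an interval of 1.11-fold to 1.26-fold (edgeR, adjusted p = 0.198). Over the alternatives the adjusted p ran from 0.000344 with DESeq2 to 0.401.

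ENSRNOG00000060464 was lower in the exercised rats. It was at 17.5, 20 and 20.7 CPM in late control and at 13.6, 15.4 and 17.6 CPM in late exercise (lowest, median and highest of 6). The groups overlapped by the narrowest of margins: the highest exercised rat, replicate 1, stood just above the lowest control, replicate 3, and the other 5 exercised rats below it. The means were 19.7 ± 1.21 and 15.4 ± 1.33 CPM (SD, n = 6), a log2 fold change of -0.36 ± 0.0666 (SE; edgeR, adjusted p = 0.198, and 0.00361 to 0.401 over the alternatives).

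ENSRNOG00000001297 was at 24.1, 25.7 and 26.6 CPM in late control and at 18.3, 20.7 and 22.4 CPM in late exercise, with every exercised rat below every control. Means of 25.4 ± 0.995 and 20.6 ± 1.65 CPM (SD, n = 6) gave a log2 fold change of -0.30 ± 0.0581 (SE), with exercise 1.23-fold lower and an interval of 1.13-fold to 1.35-fold (edgeR, adjusted p = 0.198, and 0.00539 to 0.401 over the alternatives). For each of the 4 IDs the sign was the same under all 18 alternatives. This is no independent support, since the IDs were picked in the same libraries. Leaving out 1 rat could hardly reverse groups that separate or nearly so.

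Complete separation of the 6 exercised rats from the 6 controls, as in 3 of these IDs, was found for 37 genes with higher values (0.275% of those tested) and 35 with lower values (0.26%). Their differences were modest. The median was 1.16-fold for the higher and 1.17-fold for the lower set, and the largest 1.69-fold and 1.77-fold. Genes of both sets were moderately abundant, with median levels of 31.2 and 27.4 CPM. Their adjusted p-values lay between 0.198 and 0.326 (edgeR).

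The largest fold changes belonged to other genes, whose values scattered widely within the groups. In all, 36 genes were over 2-fold higher and 11 over 2-fold lower after exercise, and for none of these 47 did the groups separate. At least 5 CPM in a group was reached by 19 of the 36 and by 3 of the 11. For 6 of the 36 genes a single exercised rat held more of the group's summed CPM than the other 5 together. The largest difference at 5 CPM or more belonged to a gene with 0, 15.8 and 40.1 CPM in controls and 0, 176 and 989 CPM in exercised rats (lowest, median and highest of 6). It lay above all controls in 4 of 6 exercised rats, with replicate 5 the highest, and averaged 18.5 ± 14.2 against 319 ± 386 CPM (SD, n = 6), a 17.2-fold difference (edgeR, adjusted p = 0.213). In each group 1 rat had no count for it. The largest lower difference at that abundance was 2.28-fold, from 22.9 ± 13.7 to 9.99 ± 8.39 CPM (SD, n = 6; edgeR, adjusted p = 0.261), and its highest exercised rat, at 26.9 CPM, was replicate 6.

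Of the 12 libraries, late exercise replicate 6 had by far the most weight in the count of calls. Leaving it out gave 479 genes of 13498 past the threshold (3.55% called; edgeR, adjusted p under 0.05), 295 higher and 184 lower, and 3077 genes at an unadjusted p under 0.05. Leaving out any other exercised rat gave 0 calls, with 1511 to 2056 genes at an unadjusted p under 0.05. Leaving out a control gave 0 calls, with 1739 to 2084 such genes, except for late control replicate 4, without which 1 gene passed, ENSRNOG00000060310, and 1637 were at an unadjusted p under 0.05. The genes called without replicate 6 differed by a median of 1.28-fold for those higher and 1.27-fold for those lower, and 14 and 4 of them by over 2-fold. With that library back in, the medians were 1.23-fold and 1.21-fold over the 295 and the 183 that were still tested, and all kept their sign.

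**Figure D3:**
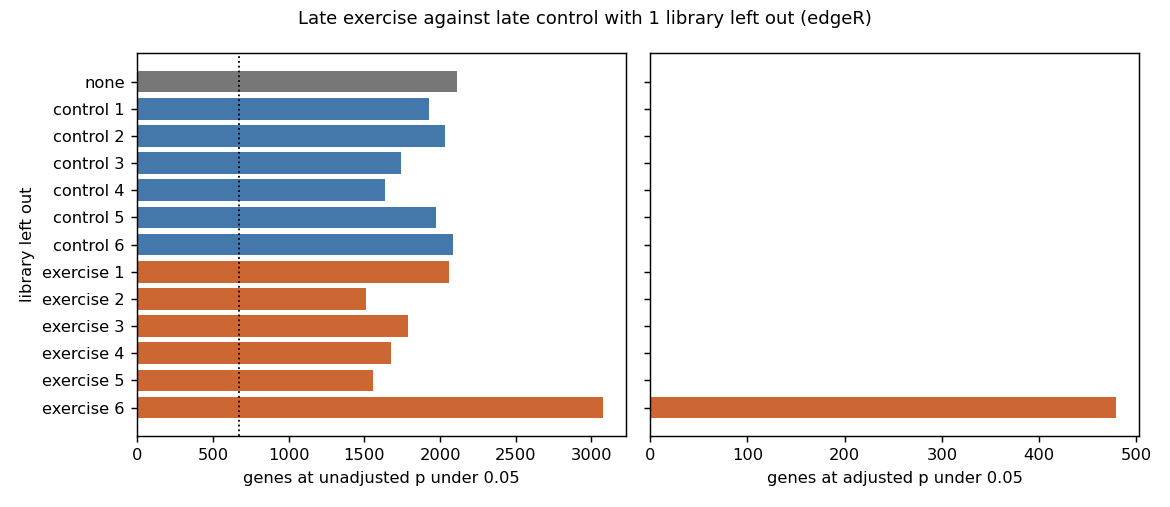
Number of genes at an unadjusted p under 0.05 (left) and at an adjusted p under 0.05 (right) in the edgeR comparison of late exercise with late control when a library is left out; the grey bar uses all 12, blue bars leave out a control and orange bars an exercised rat, and the dotted line marks the 672 genes expected when no gene differs. The count without late exercise replicate 6 is 479 calls, against 0 or 1 without any other library.

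The levels of replicate 6 in those genes are given as a description. The genes passed without it and not with it, so its distance from the other exercised rats there largely restates its effect on the count and is no independent evidence. For the 295 genes higher in the other 5 exercised rats, replicate 6 lay within the range of the 6 controls for 258, above all of them for 16 and below all of them for 21. It was below the median control for 204 of the 295. For the 183 lower genes it lay within the range of the controls for 138, below all controls for 32 and above all for 13, and was above the median control for 83. It lay within the range of the other 5 exercised rats for 9 of the higher and 28 of the lower genes. As an example, the gene with the smallest p among the higher ones stood at 34.2 to 44.4 CPM in the 6 controls, at 55.8 to 64.5 CPM in 5 exercised rats and at 38.6 CPM in replicate 6 (edgeR, adjusted p = 0.0106 without and 0.198 with it). Its counterpart among the lower ones stood at 50.8 to 67.5 CPM in controls, at 33.1 to 40.4 CPM in 5 exercised rats and at 65 CPM in replicate 6 (edgeR, adjusted p = 0.0106 without and 0.218 with it).

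Every library was also placed, in the same way, on the 500 genes with the smallest p in the fit without it. Positions were scaled so that -1 is the mean of the other controls and 1 the mean of the other exercised rats on these genes. All 6 controls fell on the control side of the midpoint, from -0.03 for replicate 5 to -1.4 for replicate 4. Of the exercised rats replicates 2, 3, 4 and 5 lay on the exercise side, at 0.867, 0.673, 0.897 and 1.28. Replicate 1 lay at -0.0251, next to the midpoint, and replicate 6 at -1.06, with 38 of its 500 genes on the exercise side. Each library had its own 500 genes, and the marks at -1 and 1 are means of the libraries that picked them. A left-out library can therefore lie nearer 0 than the marks, as all controls but replicate 4 did. Of the left-out controls only replicate 4 lay lower than late exercise replicate 6. In all, 10 of 12 libraries fell on the side of their label, but control replicates 5 and 6 and exercise replicate 1 lay near the midpoint. They had 223, 247 and 260 of their 500 genes on the exercise side. The position of replicate 6 overlaps with its effect on the count of calls and is likewise a description. Replicate 6 had 15453920 counts and 16224 detected IDs, inside the ranges of the others, and the lowest share in its 100 most abundant genes among the exercised rats, at 39.16%. The part of that share in its position was not tested. The labels give nothing that sets this rat apart from the other 5.

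**Figure D4:**
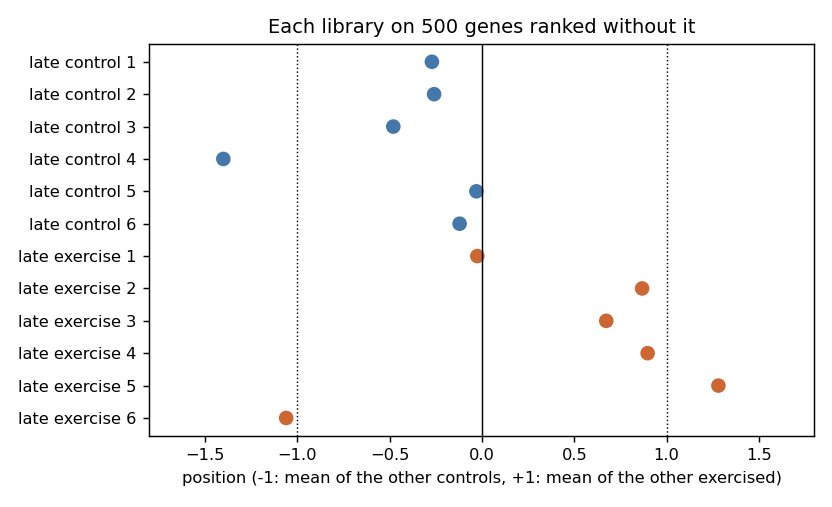
Position of each library on the 500 genes with the smallest p in the fit that left it out, where -1 is the mean of the other late controls and +1 that of the other exercised rats; blue is late control and orange late exercise. Exercised replicates 2 to 5 lie between 0.673 and 1.28, replicate 1 at -0.0251 and replicate 6 at -1.06, lower than every control except replicate 4. Each library has its own 500 genes.

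The test used also mattered. DESeq2's Wald test called 201 genes (1.5% of those tested, with no adjusted p given for 4174), 123 higher and 78 lower, where edgeR called 0 and limma voom with sample quality weights 1. The 201 genes differed by a median of 1.25-fold, and 2 of them by over 2-fold, both higher. All 201 were at an unadjusted p under 0.05 with edgeR, at adjusted p-values between 0.198 and 0.274. The 4 IDs above were among them. Of the 201, 176 were also called by edgeR without late exercise replicate 6, which is 87.6% of the DESeq2 calls and 36.8% of those made without that rat. These lists share 11 libraries and are not independent.

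Variation between rats was similar in the groups. Over the 12951 genes at 1 CPM or more, the median SD of log2 CPM was 0.153 among controls and 0.159 among exercised rats, and 52.9% of genes had the larger SD in exercised rats. Without late control replicate 4 the controls' median was 0.133, and without late exercise replicate 6 that of the exercised rats was 0.142. The SD was then larger in exercised rats for 62.6% and 45.6% of the genes. Each of these shares left out a library of a single group, which tends to lower the SD of that group. The share with both left out was not computed, so which group was the more variable was not settled.

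Whether the exercise difference at the late phase departed from that at the early phase was tested in the 24 visceral libraries. No gene passed (0 of 13883, 0% called; edgeR, adjusted p under 0.05), with 975 (7.02%) at an unadjusted p under 0.05 against 694 expected and a smallest adjusted p of 0.441. Early exercise replicate 3 and early control replicate 5 stand apart from the rest of the depot, with median Spearman correlations of 0.95 and 0.9582 against 0.9765 to 0.9839 for the other 22. Without this pair the test had 0 calls, with 1321 genes under an unadjusted p of 0.05. For this difference limma voom had 0 calls, with 1609 genes under an unadjusted p of 0.05, and DESeq2 2 calls. In the fit of all 4 visceral groups, the early comparison itself had 345 genes (2.49%) at an unadjusted p under 0.05, against 694 expected. The late comparison in that same fit had 1557, and the 2110 given above came from the late libraries fitted alone. That fit includes the early libraries that stand apart.

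The genes at an unadjusted p under 0.05 late had the same sign early about as often as all genes did, in libraries that share no rat with the late ones. Of the 2110, 1061 (50.3%) had the same sign at the early phase, and of all 13438 tested genes 48.9%. Without the 2 early libraries that stand apart it was 47.8% of the 2110 and 49% of all. The 1141 genes higher late, at a median log2 fold change of 0.24, had a median of -0.0019 early. The 969 lower late, at a median of -0.25, had -0.0039 early.

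The 4 IDs differed among themselves across the phases. They were picked for their late p, and the late fold change is part of the late minus early difference. The picking therefore favours large differences below and late groups that lie apart. On the scale of the 24 libraries, ENSRNOG00000060310 averaged 11.1 ± 3.43 CPM in early control, 9.78 ± 2.56 in early exercise, 8.42 ± 1.72 in late control and 13.2 ± 1.06 in late exercise (SD, n = 6). Late control had thus the lowest mean and late exercise the highest, and early controls ranged from 7.87 to 17.4 CPM. The late minus early difference of its log2 fold changes was 0.83 ± 0.251 (SE; edgeR, adjusted p = 0.523), or 0.905 without the 2 early libraries that stand apart.

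ENSRNOG00000001544 averaged 72 ± 4.01, 75.3 ± 9.05, 84.3 ± 4.06 and 100 ± 2.61 CPM in the same order (SD, n = 6). Its early log2 fold change was 0.06 ± 0.0641 (SE), and the late minus early difference 0.18 ± 0.0906 (SE; edgeR, adjusted p = 0.731), or 0.09 without the 2 early libraries. ENSRNOG00000060464 had the same sign at both phases, with -0.14 ± 0.0862 (SE) early and means of 17.8 ± 2.04 CPM in early control and 16.2 ± 2.16 in early exercise (SD, n = 6). The difference between its fold changes was -0.22 ± 0.122 (SE; edgeR, adjusted p = 0.781), or -0.225 without the 2 early libraries. ENSRNOG00000001297 stood at 21.5 ± 1.8, 21.8 ± 1.81, 25.7 ± 1.12 and 20.9 ± 1.58 CPM (SD, n = 6), so that late control lay above the other groups, which were close to each other. Its late minus early difference was -0.32 ± 0.0914 (SE; edgeR, adjusted p = 0.474), or -0.37 without the 2 early libraries. For none of the 4 was the late difference shown to depart from the early one.

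**Figure D5:**
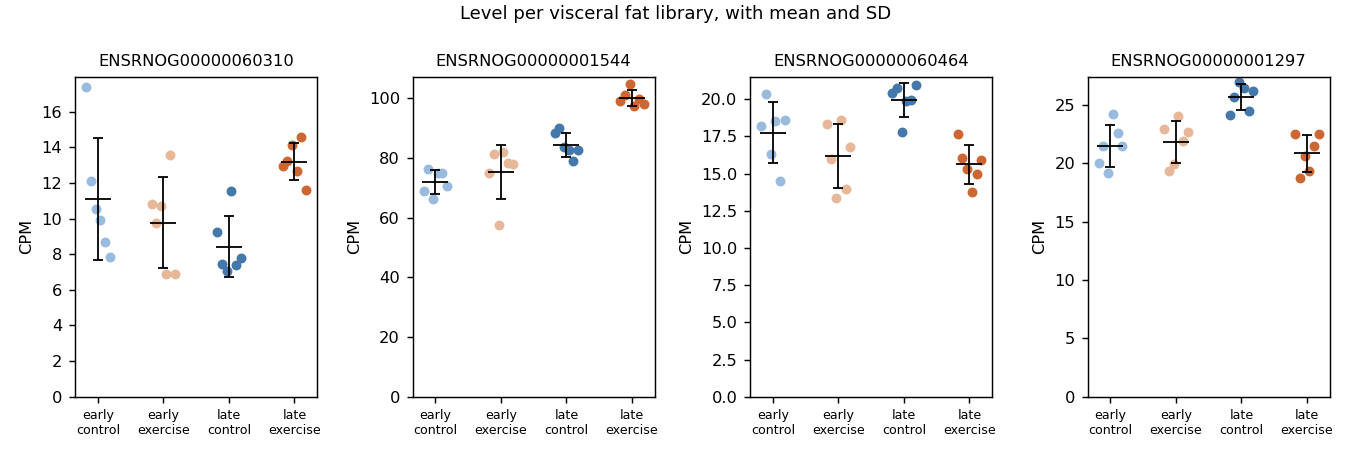
CPM of the 4 IDs in each of the 24 visceral fat libraries by group (points), with mean and SD (black); CPM use the scaling of all 24 libraries. In ENSRNOG00000060310 late control is the lowest group at 8.42 CPM, and in ENSRNOG00000001297 the highest at 25.7 CPM, with the late exercise mean of the latter near both early means.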

How the data were processed

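The authors deposited estimated counts per Ensembl gene ID, as whole numbers; per the submitters' processing notes, which give no roles, Salmon 1.4.0 and rn6 were used. Per the labels' protocols, samples needed an RNA integrity number above 9 and were sequenced as single-end reads of 50 nt. The annotation release is not given in the sources used here.

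The 12 libraries were fitted in edgeR 4.0.16 under R 4.3.3 (TMM, filterByExpr, quasi-likelihood fit of the 2 groups, Benjamini-Hochberg at 0.05); 13438 genes passed the filter, with 99.92% of the counts, and the common biological coefficient of variation was 14.9%. Standard errors are the log2 fold change over the square root of F. CPM use TMM library sizes, and log2 CPM a prior count of 2. The late minus early test used the 4 visceral groups. The fits were tested on simulated counts. Alternatives were DESeq2 1.42.0 (size factors, Wald test), limma 3.58.1 voom, no filter, a replicate block, all 4 groups, and leaving out each late library. Replicate numbers name different rats. The 30 pairs of libraries of the same group all differed beyond sampling noise (chi-square per degree of freedom 10.7 to 72.2).

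The IDs described were to be the 12 with the smallest p in each direction with a symbol, plus list members; without symbols the rule, set with it, was the 2 smallest in each direction at 5 CPM or more. The comparison, lists and rules were chosen with earlier results of these data known. The held-out positions, size and abundance classes were chosen after seeing the data.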

Additional observations from a re-analysis of the deposited data

Results flagged for a closer look

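In 30 tests of groups of 6 libraries for a value far from the others, 5 were found, where chance gives about 1 in 20. These tests share libraries and are not independent, so the number found is a count and not a test of a surplus. Late control replicate 4 had the lowest median rank correlation of the controls (0.9808, the next 0.9859) and the most genes over 2-fold above the median (183, the next 53). Late exercise replicate 4 had 123 such genes, the next exercised rat 61. ENSRNOG00000001544 was highest in late exercise replicate 3, at 104 CPM against 98.5 for the next, and lowest in early exercise replicate 3, at 57.6 CPM against 75 for the next; that early library also stands apart in its rank correlation, at 0.95. Late exercise replicate 6, on which the count of calls turned, was not far from its group in any of these measures.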

How the results depend on the processing

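The count of genes past the threshold after late exercise, 0 with all libraries, was 0 with DESeq2 size factors, with no filter and with the fit of all 4 visceral groups, 201 with the DESeq2 Wald test, 1 with limma voom and 1 with the replicate block (a gene at 84.3 CPM in late control and 124 in late exercise, 1.47-fold, adjusted p = 0.0237, edgeR). Leaving out a library gave 0 to 479 calls; 479 came without late exercise replicate 6 and 1 without late control replicate 4. The count at an unadjusted p under 0.05 stayed within 1.5 times of 2110, from 1511 to 3077 without a library. Same-numbered rats of the groups deviated together weakly at most (correlations of -0.148 to 0.222, over 0.1 in 3 of 6 pairs). Of the 6 controls, 2 correlated best with their own number. So few pairs cannot exclude that the numbers pair the rats. The late minus early test gave 0 calls under each alternative except the DESeq2 Wald test with 2. At an unadjusted p under 0.05 it had 1609 genes with limma voom and 716 to 1365 without a library. The 1365 came without late exercise replicate 6, where the smallest adjusted p was 0.0694 (edgeR), against 0.441 with all libraries. Without other late libraries the smallest adjusted p reached up to 0.83 (edgeR). For the 4 IDs, 134 of 144 alternative values lay on the same side of the threshold with the same sign, and 10 passed it with the same sign: in 4 IDs with DESeq2 and without late exercise replicate 6, and in ENSRNOG00000060310 also with limma voom and without late control replicate 4. The causes were not tested. Counts of list members were not run, since no ID had a symbol. Precision was lowest for scarce genes: under 1 CPM the median standard error was 0.287 on the log2 scale, against 0.0742 between 10 and 100 CPM.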
